A study of Mus musculus with 30 samples.

Results

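Of the 6927 H3K27me3 peaks listed in mouse ER-Hoxa9-Lys-GFP cells after 120 h without estradiol (E2), 1253 lay where cells kept in E2 had no peak and where a peak was also listed after 72 h without E2 followed by 48 h of restored E2. They made up 18.1% of the 120 h list (95% Clopper-Pearson interval 17.2 to 19) and are called kept gains below. They were chosen by an overlap of at least 1 bp with the 72 h list and none with the E2 list, on chromosomes 1 to 19 and X, from 25417 H3K27me3 peaks in 5 lists. Presence in the E2, 72 h and 120 h lists was therefore set by the choice and is given as a description only. A pair of further sets of 120 h peaks served for comparison: 2672 other gains with neither an E2 nor a 72 h peak, and 3002 peaks shared with E2. The 72 h cells were taken after E2 had been back for 48 h, so a mark laid down during withdrawal and then held cannot be told apart from one that arrived after E2 returned.

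The cells are cultured C57BL/6 mouse cells with HOXA9, a homeodomain factor of blood progenitors, joined to an estrogen receptor (ER) part that makes it depend on E2. The series followed their chromatin before and after commitment to myeloid differentiation. All groups carried ER-Hoxa9 and grew in medium with stem cell factor. The difference that the labels give between them was in E2: E2 throughout, 24 h without E2 and 96 h restored, 40 h and 80 h, 72 h and 48 h, or 120 h without E2. For H3K27ac there was also a group with 56 h without E2 and 64 h restored. The times 24, 40, 56 and 72 h name the length of withdrawal, and each came with a different time back in E2, so the effects of the 2 times cannot be told apart. The lists are therefore ordered by length of withdrawal and are not successive samples of a single course. The labels do not say whether the line is 1 clone. The lists fit the genome build mm9, for which no gene annotation was used here, so regions are named by position, and the cell type was not checked against marker genes. Each mark and condition had 1 library. Without replicates, differences between lists could not be tested, and the intervals cover peak-counting error only, while neighbouring peaks are not independent.

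H3K27me3, trimethylation of lysine 27 of histone H3, is placed by Polycomb repressive complex 2 (PRC2) and marks genes that are held silent. The complex can bind the mark it makes, and this lets a marked stretch widen from a starting site and be passed on through cell division. Acetylation of the same lysine, H3K27ac, marks active promoters and enhancers, and a single lysine cannot carry both, so that a region going from one mark to the other has to lose the first.

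In the order E2, 24, 40, 72 and 120 h, the H3K27me3 lists held 4354, 5125, 3845, 5166 and 6927 peaks and covered 5.47, 9.10, 6.08, 8.06 and 12.9 Mb. The read depth behind them is unknown. In all 5 lists the narrowest peak was 146 bp wide and the smallest gap between neighbours was 585 bp. The 120 h list covered the most length, and the 40 h list held fewest peaks. List length thus moved with every comparison between times below, and its part in them was not tested. In bulk lists, fewer marked cells and less of the mark per cell cannot be told apart.

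Kept gains were stretches of about 1 kb. Their median width at 120 h was 1063 bp (quartiles 536 and 1901 bp, n = 1253), against 483 bp for other gains (261 and 820 bp) and 2411 bp for peaks shared with E2 (1155 and 4227 bp). Only 35 kept gains were wider than 5 kb, and 157 were under 300 bp. Wider gains were more often kept: from the narrowest to the widest quartile of all 3925 gains, 16.2%, 19.9%, 30.4% and 61.2% had a 72 h peak. A wide peak has more room for a 1 bp overlap, so this order is not independent of the rule.

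**Figure D1:**
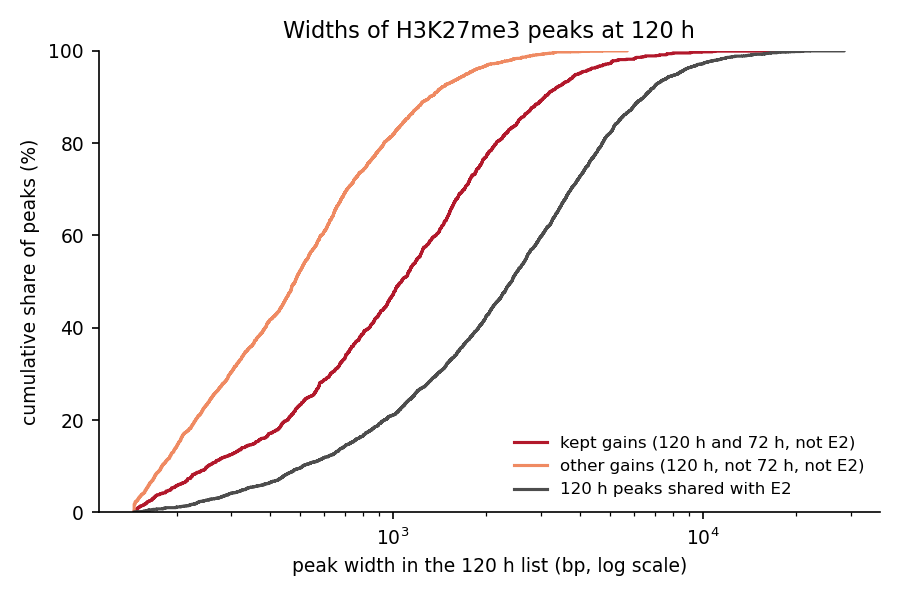
Cumulative share of H3K27me3 peaks of the 120 h list (y axis, percent) by peak width (x axis, bp, log scale) for kept gains, other gains and peaks shared with E2. The curve of the kept gains lies between the other 2 sets, with medians of 1063, 483 and 2411 bp.

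At 72 h the mark filled only part of these stretches. The 72 h peaks covered 926 kb of the 1840 kb held by kept gains (50.3%), and the median kept gain was covered over 55.7% of its width (quartiles 31.8% and 81.8%). In all, 84 kept gains were wholly covered at 72 h, 711 were covered over at least 50%, and 85 lay on 2 or more 72 h peaks, with up to 5. For peaks shared with E2, the covered length was 54.1% in E2 and 72.5%, 58.5% and 70.7% in the 24, 40 and 72 h lists. The 72 h peaks that met a kept gain had a median width of 608 bp (n = 1347), against 1178 bp for the other 3819 peaks of that list. The median was 477.5 bp for all 2032 peaks of the 72 h list that met no E2 peak. Peaks on kept gains were thus not narrow among those. Of these 1347 peaks, 35 also reached an E2 peak, and 35 kept gains (2.79%) were touched by such a peak alone. The number of members depended on these choices: it was 711 with coverage of at least 50% required, 715 after peaks within 5 kb were merged, 673 with peaks up to the median width of each list left out, and 674 with every list limited to its 3845 widest peaks. The last 3 of these also gave wider members, with medians of 1628, 2251 and 1833 bp.

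The 24 h and 40 h lists had no part in the choice. Of the kept gains, 665 (53.1%, 50.3 to 55.9) overlapped a peak at 24 h and 413 (33.0%, 30.4 to 35.6) a peak at 40 h. Over all 120 h peaks the shares were 56% and 43.8%, so kept gains lay below the whole list at both times. Other gains were found far less often, at 17.0% (15.5 to 18.4) and 5.28% (4.46 to 6.19), and peaks shared with E2 far more often, at 91.9% and 82.7%. The difference between kept and other gains was 36.1 percentage points at 24 h (95% Newcombe interval 33.0 to 39.2) and 27.7 points at 40 h (25 to 30.4), with kept gains higher on 20 of 20 chromosomes both times. Kept gains were wider than other gains. From the narrowest quartile of width to the widest, the difference at 24 h was 36.8, 34.0, 36.0 and 33.7 points. At 40 h it was 17.5, 24.5, 26.7 and 29.2 points in the same order. The cause of these differences was not tested, and the lists hold no peak height.

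Counted by length, 473 kb of the kept gains (25.7%) was covered at 24 h and 252 kb (13.7%) at 40 h. The corresponding values for other gains were 10.1% and 2.50%. Where a kept gain was present, a median of 68.7% of it was covered at 24 h and 43.4% at 40 h. These medians are over different members, 665 and 413 of them.

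**Figure D2:**
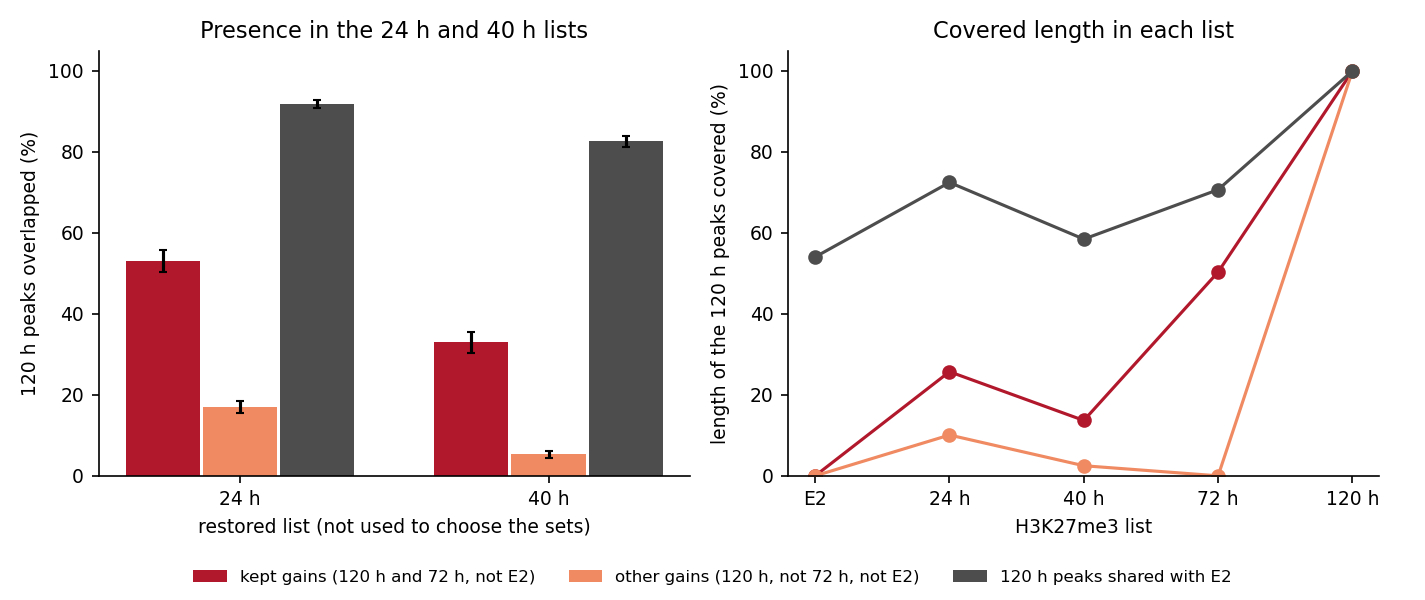
Left, share of 120 h peaks overlapped (y axis, percent) in the 24 h and 40 h lists for kept gains, other gains and peaks shared with E2, with 95% Clopper-Pearson intervals. Right, share of the length of each set covered in every list (y axis, percent), where E2, 72 h and 120 h values of the gains follow from the choice. Kept gains stand at 53.1% and 33.0%, between other gains and shared peaks.

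By presence at 24 h and 40 h, kept gains fell into 4 groups. In 354 (28.3%) the mark was listed at both 24 h and 40 h, in 311 (24.8%) at 24 h only, in 59 (4.71%) at 40 h only and in 529 (42.2%, 39.5 to 45.0) at neither. Members present at both times had a median width of 1220 bp and those present at neither 1012 bp. They differed more in position: the median gap to the nearest H3K27me3 peak of the E2 list was 9670 bp for members present at both times and 35494 bp for those present at neither. Other gains were present at neither time in 81.6% of cases.

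The widest kept gain, chr7:151633690-151654612, spanned 20923 bp. It had no H3K27me3 in E2 or in the 24 and 40 h lists, and 10464 bp were covered at 72 h. Its neighbour chr7:151621353-151632301 (10949 bp) had a mark on 879, 1790 and 5301 bp in the 24, 40 and 72 h lists. Both are among 6 kept gains between 151601419 and 151654612 of chromosome 7, a stretch of 53194 bp that also held 2 other gains and 1 shared peak. H3K27me3 covered 272, 1101, 1790, 18119 and 45641 bp of it in the order of the lists from E2 to 120 h. No H3K27ac peak lay in that stretch in any of the 6 lists. The largest steps in this stretch were thus from the 40 h to the 72 h list and from there to the 120 h list.

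Of the next widest kept gains, chr5:92663160-92673882 (10723 bp) was likewise empty at 24 h and 40 h and had 3914 bp at 72 h. At chr14:121885664-121895560 (9897 bp) the covered lengths were 354, 897 and 5715 bp at 24, 40 and 72 h. The fifth widest, on chromosome 18 (9195 bp), had 0 bp at 24 h and 40 h and 2002 bp at 72 h. At chr1:74845711-74854813 (9103 bp) the 72 h peaks took up 7800 bp, against 161 bp at 24 h and 870 bp at 40 h. Little was kept at chr17:35604154-35612183, with 456 of 8030 bp at 72 h. At chr19:4075701-4083650 (7950 bp) the mark covered 2140, 361 and 3991 bp at 24, 40 and 72 h. Among the 8 widest members, 4 had no mark in either of the 24 and 40 h lists, and the chromosome 19 member had most at 24 h.

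The cluster with most members lay at chr15:7140797-7166477. Its 7 kept gains, from 782 to 7633 bp wide and within 10 kb of one another, together measured 16422 bp. H3K27me3 covered 0, 225, 0 and 7602 bp there in E2 and at 24, 40 and 72 h, and the nearest E2 peak was 8911 bp away. The cluster chr17:12926278-12946186 had no mark after the shorter withdrawals. Its stretch, with 6 members and 1 other gain, had 0 bp in the E2, 24 and 40 h lists. It had 4816 bp in the 72 h list and 8904 bp in the 120 h list. The cluster chr19:4675812-4694488 ran the other way. Its stretch, with 5 members and 3 other gains, was covered over 5832 bp at 24 h and 3213 bp at 40 h, but over 1773 and 3587 bp in the 72 and 120 h lists. Of its 5 members, 4 were present at 24 h and 4 at 40 h. The longest of the clusters with 4 members, chr5:92655917-92687058, also held 2 shared peaks and had 408, 1030, 506, 11301 and 26638 bp in the order of the lists. None of these 5 clusters had H3K27ac in any list.

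**Figure D3:**
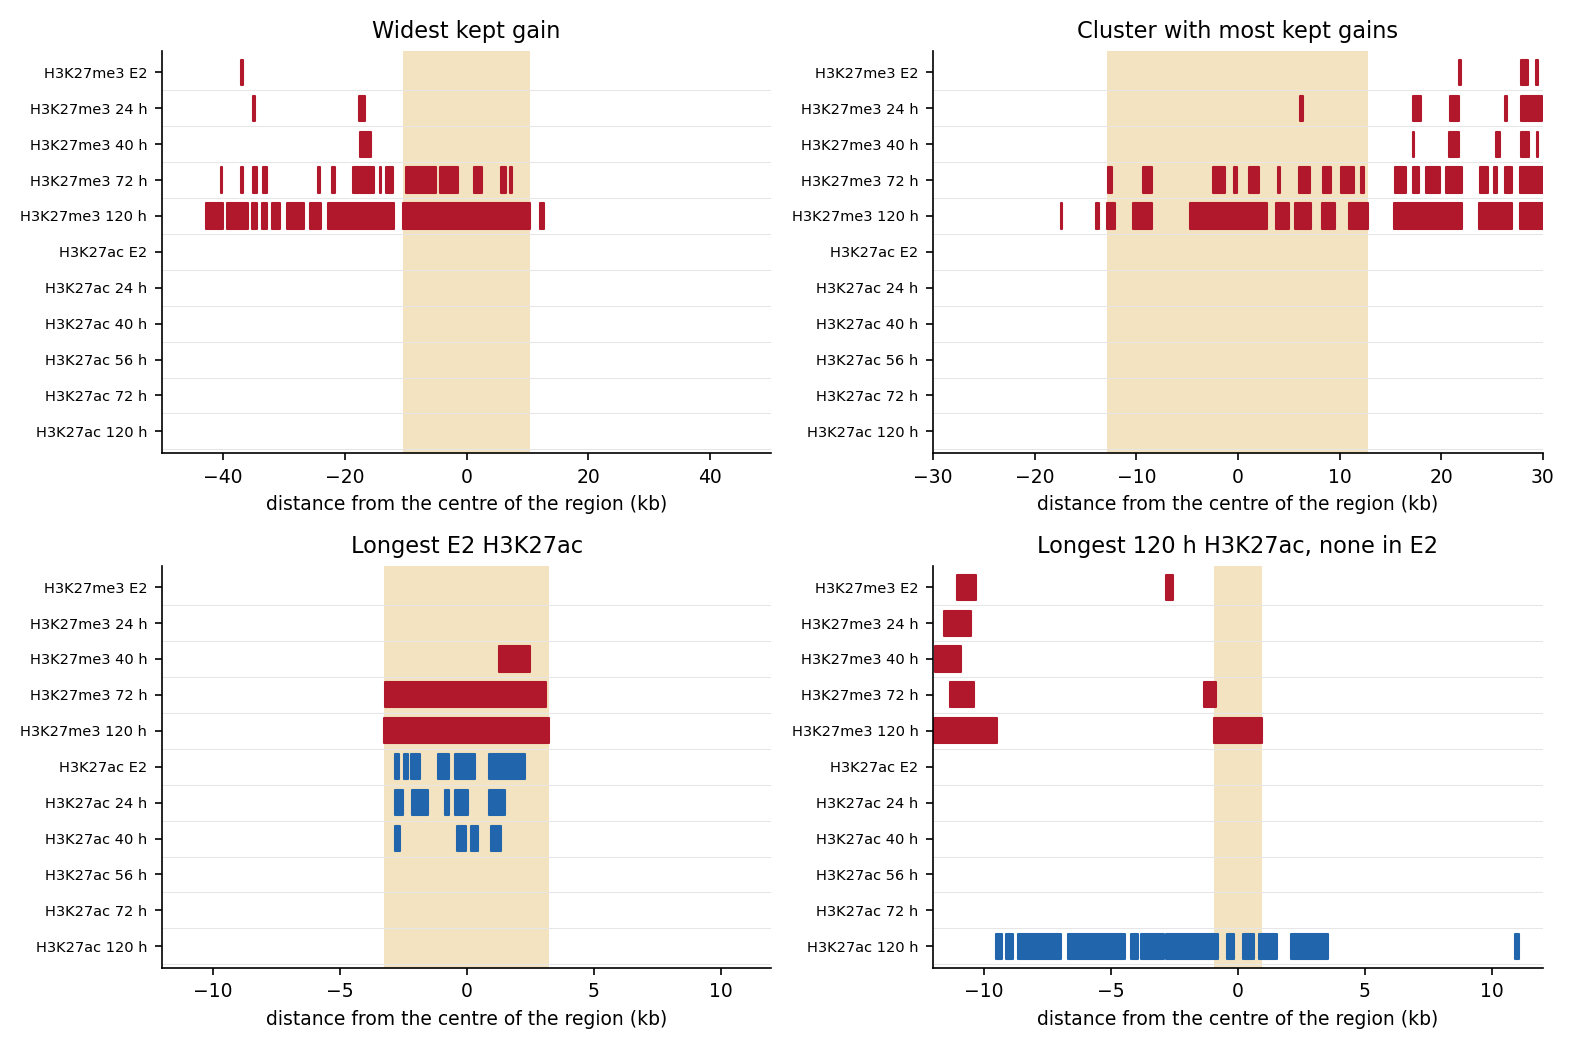
Peaks of H3K27me3 (red, 5 lists) and H3K27ac (blue, 6 lists) around 4 regions, with the distance from the centre of the shaded region in kb on the x axis and 1 list per row. The widest kept gain (20923 bp) and the cluster of 7 members have no H3K27ac, the third region has H3K27ac up to the 40 h list and is filled by H3K27me3 from 72 h, and the fourth lies in a stretch of H3K27ac at 120 h.

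Clusters were the smaller part of the set. With members up to 10 kb apart joined, 326 kept gains (26.0%, 23.6 to 28.5) fell into 138 clusters, 108 of them pairs and 4 with 5 or more members, and 927 stood alone. Other gains, a larger set of 2672, were in clusters more often, at 42.9% with the same gap. The share of kept gains was between 5.17% and 16.8% after merging or with only the wider peaks of each list. With a gap of 50 kb it was 43.0%, against 60.7% of other gains. The part of set size in this difference was not tested. Neighbours of any kind were common: 64.7% of kept gains (62.0 to 67.4) had another 120 h peak within 10 kb, against 63.3% over the whole 120 h list, 66.2% of other gains and 60.1% of shared peaks. The share of kept gains was near that of the whole list.

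Kept gains lay at all distances from peaks listed in E2, with a median gap of 22464 bp. The gap to the nearest E2 peak was up to 1 kb for 122 members (9.74%), 1 to 10 kb for 392 (31.3%), 10 to 100 kb for 397 (31.7%) and over 100 kb for 342 (27.3%). In total 41.0% (38.3 to 43.8) lay within 10 kb, against 36.3% of other gains and 37.8% of all gains, a difference between kept and other gains of 4.72 points (1.46 to 8.0). An E2 peak lay within 10 kb on both sides of 88 members and on 1 side of 426. The share within 10 kb was 10.2% after peaks within 5 kb were merged and 22.1% with only peaks above the median width.

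Members close to an E2 peak were found at 24 h more often than distant ones. The share present at 24 h was 78.7% (70.4 to 85.6) at gaps up to 1 kb, 57.7% (52.6 to 62.6) at 1 to 10 kb, 48.1% (43.1 to 53.2) at 10 to 100 kb and 44.4% (39.1 to 49.9) beyond. At 40 h the same classes gave 38.5%, 39.0%, 27.7% and 30.1%, a smaller spread. Other gains showed lower values and the same order at 24 h, from 42.2% down to 10.4%, so the same order was seen in both sets. Distant members were not narrower, with a median width of 1228 bp beyond 100 kb against 805 bp up to 1 kb.

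**Figure D4:**
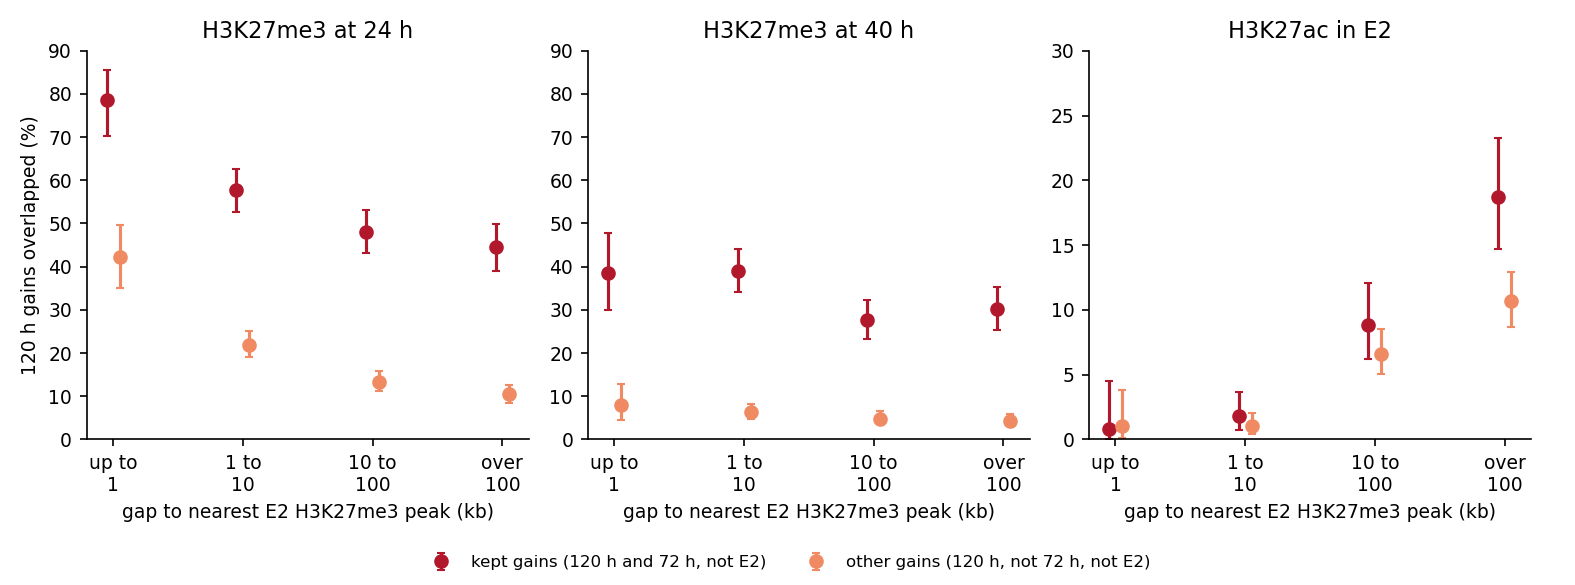
Share of kept and other gains (y axes, percent, with 95% Clopper-Pearson intervals) overlapped by H3K27me3 at 24 h, by H3K27me3 at 40 h and by H3K27ac in E2, by the gap to the nearest E2 H3K27me3 peak (x axes, kb). For kept gains, the 24 h share falls from 78.7% to 44.4% with distance and the share with E2 H3K27ac climbs from 0.820% to 18.7%.

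To see whether members were additions to marked domains, H3K27me3 peaks of all 5 lists up to 10 kb apart were joined into 4634 domains. Kept gains lay in 1011 of them. The 413 domains that held an E2 peak contained 570 members, and their covered length was 1.39, 2.54, 1.70, 2.31 and 3.58 Mb in the order of the lists from E2 to 120 h. The other 598 domains held no E2 peak and contained 683 members. Their covered length was 0.365, 0.148, 0.614 and 1.24 Mb from the 24 h to the 120 h list, and 51.2% of them had a peak at 24 h and 32.1% at 40 h. Domains without an E2 peak were short, with a median span of 2114 bp against 13732 bp. In both kinds the 40 h list covered least among the restored lists, as it did over the whole genome. The members farthest from any E2 peak were chr4:71863714-71863991 and chr4:71862518-71863079, 9617435 and 9616239 bp away and both absent at 24 h and 40 h, and chrX:83582218-83583233, which lay 8638566 bp away and had the mark on 869, 851 and 876 bp in the 24, 40 and 72 h lists.

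H3K27ac, which the choice did not use either, lay on fewer kept gains after withdrawal than in E2. An H3K27ac peak overlapped 107 kept gains in E2 (8.54%, 7.05 to 10.2), and 67 (5.35%), 38 (3.03%) and 3 (0.239%) in the 24, 40 and 56 h lists. At 72 h it was 4 (0.319%, 0.0870 to 0.815) and at 120 h 28 (2.23%, 1.49 to 3.21). The shares over all 120 h H3K27me3 peaks were 5.36%, 3.38%, 2.05%, 0.173%, 0.751% and 2.82%. The H3K27ac lists differed in length, with 27876, 36845, 28791, 6356, 24930 and 48710 peaks, and the short 56 h list limits what could be found there. Per 1000 listed H3K27ac peaks, 7.17, 3.47, 2.36, 0.629, 0.201 and 0.903 lay on kept gains in the same order. The lowest value per listed peak was thus that of the 72 h list, which was close to the E2 list in length. Members were chosen for H3K27me3 at 72 h and 120 h and none in E2, so low H3K27ac in the 72 h and 120 h lists is not independent of the rule. For other gains the lowest value was at 56 h, 1.42 per 1000, against 1.68 at 72 h. In any of the 6 lists, 120 kept gains (9.58%) had H3K27ac. The E2 share was 15.1% after H3K27me3 peaks within 5 kb were merged and 13.4% with H3K27me3 lists of equal length, and the 120 h share was 3.92% after merging and 3.91% with H3K27ac within 1 kb counted.

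Without regard to width, the difference from other gains depended on the list. In E2 kept gains had H3K27ac more often, by 2.63 points (0.910 to 4.50, higher on 13 of 20 chromosomes), but this did not hold at equal width. From the narrowest to the widest quartile of gains the difference was -3.13 (-4.74 to -0.0972), -2.16 (-4.02 to 0.937), -4.29 (-6.64 to -1.49) and 1.69 points (-3.06 to 6.18). At 72 h kept gains had H3K27ac less often than other gains, 0.319% against 1.38%, a difference of -1.07 points (-1.62 to -0.439). The sets were split by H3K27me3 at 72 h, so the 72 h difference is not independent of the rule. At 120 h the shares were 2.23% against 3.63%, a difference of -1.40 points (-2.43 to -0.226). At 24 h and 40 h the intervals of the difference included 0, from -0.626 to 2.35 and from -0.887 to 1.43 points. Within the width quartiles, from narrowest to widest, the differences were -2.41, -1.65, -4.94 and -0.0263 points at 24 h and -0.830, -1.66, -2.41 and -2.06 points at 40 h. At both times the interval excluded 0 in the third quartile only, at -6.91 to -2.83 and -4.06 to -0.370. At 72 h and 120 h the difference was likewise below 0 in all 4 quartiles, with intervals that excluded 0 in the third at both times and in the widest at 120 h. At 56 h the differences were -0.242, -0.255, -0.587 and 0.237 points, and every interval included 0. At equal width, the difference was thus below 0 in all lists except in the widest quartile in E2 and at 56 h. Compared with peaks shared with E2, kept gains had H3K27ac more often in E2 by 5.01 points (3.41 to 6.79), and at 120 h the difference was -0.0971 points (-1.01 to 0.991). By the choice shared peaks had H3K27me3 in E2 and kept gains had none, so this E2 difference is not independent of the rule.

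H3K27ac in E2 was found mainly at members far from marked stretches. It overlapped 0.820% of members up to 1 kb from an E2 H3K27me3 peak, 1.79% at 1 to 10 kb, 8.82% (6.22 to 12) at 10 to 100 kb and 18.7% (14.7 to 23.3) beyond. Other gains had 10.7% (8.70 to 12.9) beyond 100 kb. Of the 107 members with H3K27ac in E2, 64 (59.8%) were in the most distant class and 97 in the widest quartile of gains. Their median width was 2636 bp against 980 bp for the 1146 members without it. H3K27ac filled 43.3 bp per kb of the kept gains in E2 and 7.94 bp per kb of flanks of equal width on either side. At 72 h the values were 0.569 and 1.48 bp per kb, and at 120 h 6.94 and 10.2 bp per kb. For other gains they were 41.2 and 16.1 bp per kb in E2, 5.77 and 4.80 at 72 h, and 17.9 and 13.4 at 120 h. The E2 density inside was thus similar in both sets. The density inside kept gains was thus above that of their flanks in E2 and below it at 72 h and 120 h. Inside other gains it was above that of their flanks in each of these lists. By the choice kept gains had H3K27me3 at 72 h and 120 h and none in E2, so their order is not independent of the rule.

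Most of these 107 members had no H3K27ac at 120 h. It was listed at 65, 38, 3, 4 and 17 of them in the 24, 40, 56, 72 and 120 h lists, so that 90 had none in the last. H3K27me3 was less often listed at 24 h: 20.6% (13.4 to 29.5) of them had a peak, against 56.1% (53.2 to 59.0) of members without H3K27ac in E2, a difference of -35.5 points (-42.7 to -26.5). At 40 h the shares were 28.0% and 33.4%, a difference of -5.38 points (-13.5 to 4.16) whose interval includes 0. By distance, the 24 h difference was -35.5 points among members over 100 kb from an E2 peak (15.6% of 64 against 51.1% of 278). Up to 100 kb it was -29.8 points (27.9% of 43 against 57.7% of 868). By width, it was -37.0 points in the widest quartile (22.7% of 97 against 59.6% of 503). In the narrower 3 quartiles it was -53.3 points, with 0 of only 10 members against 53.3% of 643. At 24 h, H3K27me3 was listed at 12 of the 65 members with H3K27ac at 24 h and at 10 of the 42 without it, a difference of -5.35 points (-21.9 to 9.81). At 40 h the counts were 12 of 38 and 18 of 69. The 40 h difference was 5.49 points (-11.4 to 23.7), so both intervals include 0 and are wide.

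The member with most H3K27ac in E2 was chr1:75442534-75449036 (6503 bp). H3K27ac covered 3328, 2256 and 1222 bp in the E2, 24 and 40 h lists and 0 bp in the others. H3K27me3 covered 0, 1240 and 6325 bp at 24, 40 and 72 h, so the 40 h list was the only one with both marks in this member. At chr4:117165530-117169899 (4370 bp) H3K27ac covered 2962, 2993 and 2839 bp in E2 and at 24 and 40 h, and 0 and 220 bp in the 56 and 72 h lists. H3K27me3 covered 0 bp of it at 24 h and 40 h and 1211 bp at 72 h. The member chr8:35870479-35873918 (3440 bp) had 2940, 2558 and 322 bp of H3K27ac in E2 and at 24 and 40 h and none in the other lists. Its H3K27me3 covered 0 bp at 24 h and 40 h and 2787 bp at 72 h. A region on chromosome 18 (3806 bp) had 2660, 2482 and 1756 bp of H3K27ac in the same lists and none in the others, with 1432 bp of H3K27me3 at 72 h. In these 4 members H3K27me3 was absent at 24 h and H3K27ac was absent at 120 h, the second by the rule that named them. The wide members on chromosomes 18 and 1 named above had also held H3K27ac in E2, over 2633 and 1447 bp.

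A few members had H3K27ac at 120 h beside the H3K27me3 that all had there by the choice. They were 28 (2.23%), below the 2.82% over all 120 h H3K27me3 peaks. Of the 28, 17 had H3K27ac in E2 and 11 (0.878% of kept gains) did not. The share matching these 11 was not counted over all 120 h peaks. In these 28 the H3K27ac peaks took up a median of 407 bp, or 18.8% of the member. The longest such overlap without H3K27ac in E2 was 982 bp at chr2:164774475-164776333 (1859 bp), where only 79 bp of H3K27me3 were listed at 72 h. At chr8:111228553-111229139 (587 bp) and chr6:39330929-39331593 (665 bp) H3K27ac covered 441 and 413 bp at 120 h, with 203 and 665 bp of H3K27me3 at 72 h. In a bulk list, both marks at 1 place can come from different cells or from different nucleosomes, and these cannot be told apart.

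The H3K27ac peaks of the E2 list were also looked up in the other H3K27ac lists. Of the E2 list, 200 peaks lay on kept gains, 216 on other gains and 27308 on no H3K27me3 peak of 120 h. The 200 lay on 107 members, of which 47 held 2 or more and up to 6. They are thus not independent, and the intervals below do not allow for this. The 200 peaks were of ordinary width, with a median of 328 bp against 306 bp over the E2 list, and 172 of them lay wholly inside H3K27me3 at 120 h. At 24 h 52.5% of the 200 were also listed, that is overlapped by a peak of that list (45.3 to 59.6), at 40 h 31.5% (25.1 to 38.4), at 72 h 2.0% (0.548 to 5.04) and at 120 h 11% (7.02 to 16.2). For peaks on no H3K27me3 the shares were 75.1%, 63.4%, 49.4% and 64.6%. These were chosen for no H3K27me3 at 120 h, and kept gains for H3K27me3 at 72 h and 120 h. The contrasts at 72 h and 120 h are thus not independent of the choice. Peaks on kept gains were lower by 22.6 points at 24 h (difference -22.6, -29.5 to -15.8) and by 31.9 points at 40 h (-31.9, -37.9 to -25.1). At 24 h and 40 h, 20.6% and 28.0% of the members that held them had H3K27me3. Against peaks on other gains the difference was -8.61 points at 24 h (-17.9 to 0.9), -10.2 at 40 h (-19.2 to -0.894), -10.5 at 72 h (-15.7 to -5.67) and -0.111 at 120 h (-6.20 to 6.09). At 72 h, when by the rule only kept gains had H3K27me3, 4 of the 200 peaks and 27 of the 216 were listed.

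**Figure D5:**
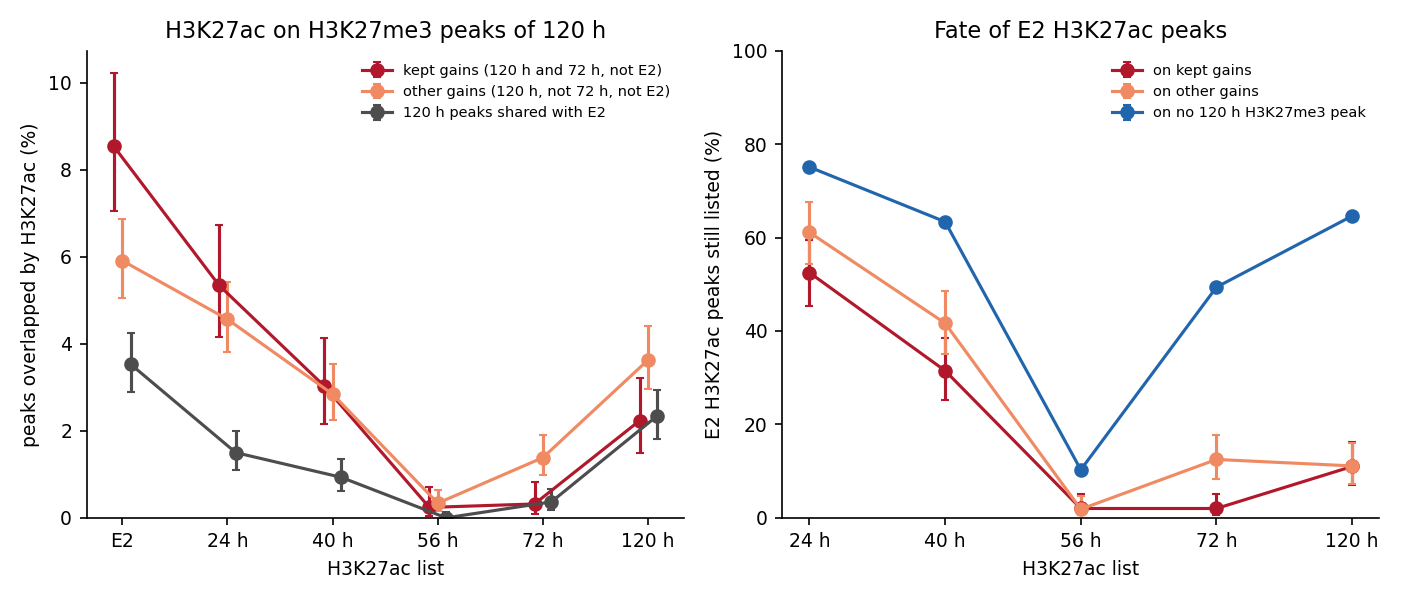
Left, share of H3K27me3 peaks of 120 h overlapped by H3K27ac in each of 6 lists (y axis, percent), for kept gains, other gains and peaks shared with E2. Right, share of E2 H3K27ac peaks also listed in each of the other lists (y axis, percent) for peaks on kept gains, on other gains and on no 120 h H3K27me3 peak, with 95% Clopper-Pearson intervals in both. H3K27ac on kept gains stands at 8.54% in E2, 0.319% at 72 h and 2.23% at 120 h.

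In domains without an E2 H3K27me3 peak, the number of H3K27ac peaks was 215, 144, 86, 8, 13 and 54 in the order of the 6 lists. In domains with one it was 47, 23, 9, 0, 11 and 91. Of the H3K27ac peaks in domains with a kept gain, most thus lay in domains without an E2 peak in the E2 list and in domains with one at 120 h. The domains were split by H3K27me3 in E2, so the E2 counts are not independent of the split. The counts were not scaled for the length of the H3K27ac lists or the span of the domains, and both differed.

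The rule turns on small overlaps at its edge. The shortest 72 h overlaps of kept gains were 8 bp at chr6:83584155-83584376 and 10 bp at chr4:108348595-108349286, and 18 members had under 50 bp. The other gains nearest to a 72 h peak were chr9:55198987-55199809 at 6 bp and chr8:96644915-96645546 at 11 bp, and 367 other gains lay within 1 kb of one.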

How the data were processed

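The deposited H3K27me3 and H3K27ac files were peak lists of ER-Hoxa9-Lys-GFP cells with other values only as coordinates (chromosome, start, end), 1 list per library, with no score, height or p-value. Bowtie2 2.0, BWA, MACS2 2.0 and the builds mm9 and mm10 are named, per the submitters' processing notes. Which tool or build made which file, the calling threshold, the use of inputs and the read depth are not given in the sources used here. Both marks were treated as mm9, since peaks on chromosome 1 reached 197003115 while the last GRCm38.p6 gene ends at 195291439. The H3K4me3, V5 and AM lists and the inputs were not used here.

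Starts were converted to 1-based positions. Groups came from the sample titles. Overlap was at least 1 bp. Kept gains, other gains and shared peaks were defined on the 120 h list, and widths, gaps to E2 peaks, clusters and domains (joined within 10 kb) were computed with Python 3.11.15, numpy 2.4.6, pandas 2.3.3 and scipy 1.17.1. Shares carry 95% Clopper-Pearson and differences 95% Newcombe intervals. The overlap code was tested on simulated intervals. The members, lists and comparisons were chosen with earlier results of these data known. Named regions were the 8 widest members, the 5 clusters with most members, the 3 widest members present at neither and at both of 24 h and 40 h, the 4 with longest E2 H3K27ac and none at 120 h, the 3 with longest 120 h H3K27ac and none in E2, the 3 farthest from E2 peaks, and 2 on either side of the rule's edge. No genes were named, as no mm9 annotation was used. For 2 regions on chromosome 18, positions are not reported here.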

Additional observations from a re-analysis of the deposited data

How the results depend on the processing

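The number of kept gains, 1253, was 711 when 72 h peaks had to cover at least 50% of a member, 715 with peaks within 5 kb merged, 673 with each list limited to peaks wider than its median and 674 with lists of equal length (their 3845 widest peaks). A count made on the 72 h list, chosen after seeing the data, gave 1610 peaks. It took 72 h peaks that met no E2 peak and met any 120 h peak, also one shared with E2. It is thus a wider set than the 1347 72 h peaks that met a kept gain. Of 103 values over 11 results, 54 stayed within the interval of the reported value or within 1.5 times the reported count, 49 did not and 0 reversed. In every setting run, kept gains were found more often than other gains at 24 h and 40 h. The cause of each shift was not tested.

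With 50% coverage, the share of gains kept was 18.1%, presence at 24 h 56.8% and at 40 h 39.0%, the share in clusters 17.7% and the median width 850 bp. With no E2 peak within 1 kb, 34.7% lay within 10 kb of one. With none within 5 kb this was 13.3%, presence was 47.7% and 30.2%, clusters 23.1%, E2 H3K27ac 12% and the median width 1186 bp. With peaks within 1 kb merged, 33.4% of gains were kept, 50.1% of them were present at 24 h, 30.4% lay within 10 kb of an E2 peak, 16.8% in clusters and 10.6% on E2 H3K27ac, and the median width was 1414 bp. Merging within 5 kb gave 35.5%, 49.4%, 10.2%, 5.17% and 15.1%, with 3.92% on H3K27ac at 120 h and a median of 1628 bp. Peaks above the median width gave 38.9% kept, 22.1% within 10 kb, 13.8% in clusters, 11.7% on E2 H3K27ac, a median of 2251 bp and a difference of 32.8 points at 24 h. Lists of equal length gave 45.3% kept, 49.3% present at 24 h and 44.4% at 40 h, differences of 30.5 and 33.1 points, 36.4% within 10 kb, 15.4% in clusters, 13.4% on E2 H3K27ac and a median of 1833 bp. The difference at 40 h was 17.5 and 24.5 points in the 2 narrowest quartiles of width. Clusters held 21.4% of members within 5 kb and 43.0% within 50 kb, and 3.91% of members had H3K27ac within 1 kb at 120 h. With H3K27ac lists of equal length, chosen after seeing the data, 1.52% overlapped at 120 h. The score-based alternative was not run, as the lists hold no score. Leaving out replicates was not possible either, with 1 library per condition. No paired analysis was possible because each condition had 1 library.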

Other observations

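Kept gains were found on all 20 chromosomes, in unequal shares of the gains. They made up 42.0% of the 274 gains of chromosome 6 (36.1 to 48.1) and 40.8% of the 98 of chromosome 18, but 22.1% of the 113 of chromosome 10 (14.9 to 30.9) and 17.8% of the 107 of chromosome 12 (11 to 26.3), against 31.9% over all chromosomes. Presence at 24 h also varied, from 30.0% of the 40 kept gains of chromosome 18 and 34.0% of the 53 of chromosome 8 to 67.8% of the 115 of chromosome 6. On the X chromosome, 18 of 64 gains were kept. These chromosomes are named because they had the highest or lowest values, or are the X chromosome.

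The same overlap was counted for the other restored lists. Of all 3925 gains, 28.5% (27.1 to 29.9) were present at 24 h, 14.1% (13.0 to 15.2) at 40 h and 31.9% (30.5 to 33.4) at 72 h, so the 24 h list came close to the 72 h list. Seen from the restored lists, 2137 peaks at 24 h, 953 at 40 h and 2032 at 72 h had no E2 peak, and 54.1% (52.0 to 56.3), 80.1% (77.4 to 82.6) and 79.2% (77.4 to 81.0) of them overlapped a 120 h peak. Thus 24 h brought the largest number of peaks absent from E2, and the smallest share of them was also listed at 120 h.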
